A study of Saccharomyces cerevisiae with 32 samples.

Results

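The genes described here encode the enzymes of lower glycolysis in the budding yeast Saccharomyces cerevisiae, which turn glyceraldehyde-3-phosphate into pyruvate. They are TDH1 (YJL052W), TDH2 (YJR009C), TDH3 (YGR192C), PGK1 (YCR012W), GPM1 (YKL152C), ENO1 (YGR254W), ENO2 (YHR174W), CDC19 (YAL038W) and PYK2 (YOR347C). These 9 genes were taken by symbol from the 6328 genes of the deposited table, and all 9 passed the filter on low values, a mean of at least 1 RPKM (reads per gene, divided by its length and by the size of the library).

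RNA was sequenced from Y128, Y127 and their parent Y22-3, a stress-tolerant strain. Y127 was evolved from Y22-3 with oxygen on xylose and carries null mutations in ISU1 and HOG1, and Y128 was evolved from Y127 without oxygen and has in addition lost GRE3 and IRA2. All 3 strains express a xylose isomerase of Clostridium phytofermentans, a xylulose kinase of Scheffersomyces stipitis and a yeast transaldolase. Each strain was cultured in rich YP medium with 2% xylose or glucose, in an anaerobic chamber or aerobically in shaken flasks, with duplicates taken on different days. This gives 12 groups of 2 libraries, and 8 single libraries of Y128 and Y22-3 come from galactose or sorbitol, with and without oxygen. The sample descriptions say that Y127 and Y22-3 did not grow in anaerobic xylose and that no culture grew in sorbitol, although the records of these samples still give an exponential stage. Where a group that did not grow is set against one without such a description, the part of growth and that of oxygen, sugar or strain cannot be told apart. Y127 against Y22-3 in anaerobic xylose, and sorbitol with and without oxygen, set cultures against each other that are all described as not growing. The authors put Y127 and Y22-3 into anaerobic xylose at about the density that the other cultures reached by growth, and incubated them equally long. They describe Y22-3 as unable to metabolize xylose, and the part of that trait in comparisons with its aerobic xylose libraries was not tested.

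Lower glycolysis runs through glyceraldehyde-3-phosphate dehydrogenase (TDH1, TDH2, TDH3), which makes NADH, phosphoglycerate kinase (PGK1), which makes ATP, phosphoglycerate mutase (GPM1), enolase (ENO1, ENO2) and pyruvate kinase (CDC19, PYK2), which makes ATP and pyruvate. TDH3, ENO2 and CDC19 are known as the main genes of their steps in cells growing on glucose. TDH1 is known from cells that are stressed or have stopped growing, ENO1 as the enolase gene that glucose does not induce, and PYK2 as a pyruvate kinase gene repressed by glucose. Xylose reaches these enzymes through the pentose phosphate pathway.

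Depth, estimated from the level at which genes with 0 reads lie, lay between 7.53 and 24.1 M reads (M for mega) in the 24 libraries with a duplicate (median 16.1 M) and between 9.37 and 22.5 M in the other 8. All levels are the deposited log2 RPKM, which are relative to each library's total. In the Y22-3 anaerobic xylose libraries the median over all genes was low, at 3.11 and 2.83 log2 RPKM, and HSP12, a stress gene, held 9.81 and 11.5% of the summed RPKM. When each library was set to a common median, the changes without oxygen of Y22-3 on xylose moved by 1.15 (log2) upward and the xylose differences of Y22-3 without oxygen by 1.24 upward. This is called centring in what follows. TDH2 and TDH3, and ENO1 and ENO2, are near-identical copies, and how reads that fit both were counted is not given in the sources used here, so the split within each pair is uncertain. The 4 mutated genes are no check of the labels, since a null allele can still be transcribed. In anaerobic xylose all 4 were lower in Y128 than in Y22-3 (-5.51 for ISU1, -2.80 for IRA2, -1.13 for GRE3 and -0.86 for HOG1), and in aerobic glucose 2 of the 4 were lower and 2 did not pass.

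The 9 genes took very different parts of the transcriptome by strain and condition. In anaerobic xylose they summed to 10.1 and 8.88% of all RPKM in Y128 and to 16.7 and 13.2% in Y127, but to only 1.43 and 1.31% in Y22-3. In anaerobic glucose the share was 2.15 and 2.15% in Y128, 4.34 and 3.44% in Y127 and 4.84 and 4.89% in Y22-3. With oxygen the 12 libraries on xylose and glucose lay within a narrow band, from 5.86% in a Y22-3 xylose library to 8.16% in a Y128 xylose library. The groups without oxygen thus lay both above and below that band, and none of them overlapped with the aerobic libraries of its own strain and sugar.

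**Figure D1:**
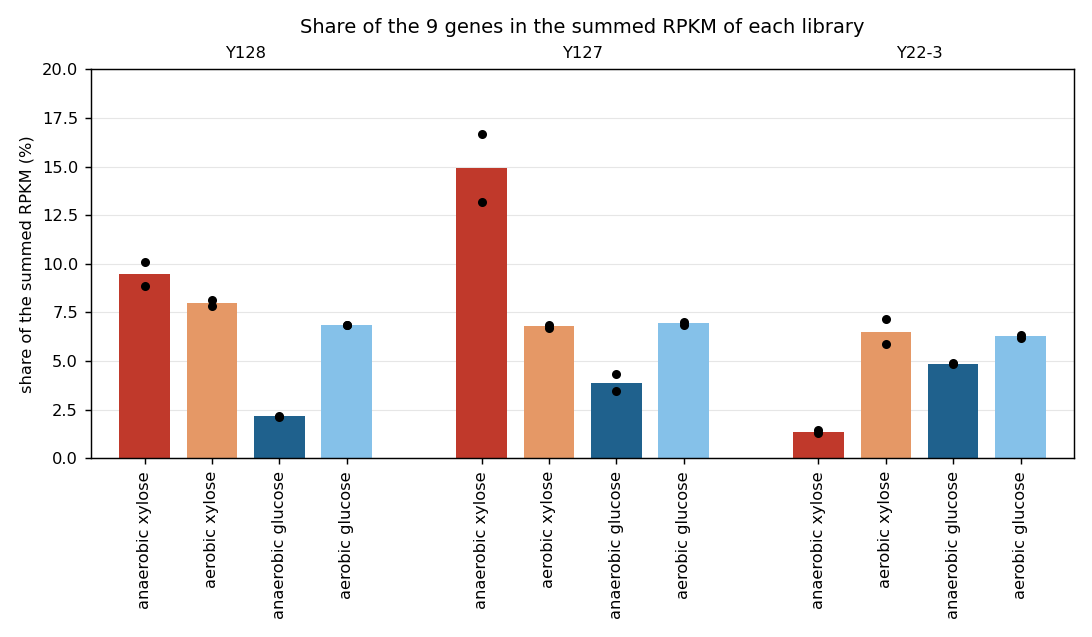
Share of the 9 genes in the summed RPKM (y axis, percent) for the 12 duplicated groups (x axis, by strain and condition), with bars at the mean of 2 libraries and a point for each library. The anaerobic xylose bars are at 9.49% in Y128, 14.9% in Y127 and 1.37% in Y22-3, while the aerobic bars lie between 6.26 and 7.99%.

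TDH1, the dehydrogenase isozyme gene with the widest range, had 13.39 and 13.29 log2 RPKM in Y128 in anaerobic xylose, 8.74 and 9.11 in aerobic xylose, 10.95 and 11.28 in anaerobic glucose, and 3.02 and 2.70 in aerobic glucose. In Y127 it had 15.13 and 14.65 in anaerobic xylose, 10.43 and 9.43 in aerobic xylose, 12.53 and 12.57 in anaerobic glucose, and 5.30 and 5.13 in aerobic glucose. In Y22-3 the values were 11.75 and 11.70 in anaerobic xylose, 9.74 and 10.29 in aerobic xylose, 12.04 and 12.90 in anaerobic glucose, and 5.64 and 5.35 in aerobic glucose. In all 3 strains aerobic glucose was thus lowest and each anaerobic group lay above its aerobic one. TDH1 was the gene with the highest RPKM of the table in both Y127 anaerobic xylose libraries, with 6.42 and 4.80% of the sum, whereas in aerobic glucose it ranked 4176 and 4432 of 6328 in Y128. Its group means spanned 12.03 on the log2 scale. Of the 11 pairs of neighbours in the order of its group means, the libraries of 2 overlapped, namely Y127 and Y22-3 in anaerobic glucose (12.55 ± 0.03 and 12.47 ± 0.61, SD, n = 2) and Y22-3 and Y127 in aerobic xylose (10.02 ± 0.39 and 9.93 ± 0.71, SD, n = 2).

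TDH3 had 13.54 and 13.38 log2 RPKM in Y128 in anaerobic xylose, 14.54 and 14.67 in aerobic xylose, 10.51 and 10.18 in anaerobic glucose, and 14.23 and 14.20 in aerobic glucose. In Y127 it had 14.46 and 14.11 in anaerobic xylose, 14.64 and 14.12 in aerobic xylose, 12.20 and 11.47 in anaerobic glucose, and 14.40 and 14.34 in aerobic glucose. Y22-3 had 12.01 and 12.05 in anaerobic xylose, 14.74 and 14.91 in aerobic xylose, 12.52 and 11.97 in anaerobic glucose, and 14.40 and 14.40 in aerobic glucose. On xylose and glucose the aerobic levels stayed high in every strain, and the anaerobic glucose levels were low in every strain. TDH3 lay among the 2 highest genes of the table in all 12 aerobic libraries of xylose and glucose. Its rank dropped to 52 and 69 in Y128 in anaerobic glucose. TDH2 kept below TDH3 in all 24 libraries, with its lowest mean in Y22-3 in anaerobic xylose (7.27 ± 0.37) and its highest in Y128 in aerobic xylose (12.16 ± 0.07; SD, n = 2 each). Its duplicates were far apart in Y127 in anaerobic glucose, at 10.26 and 8.71.

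**Figure D2:**
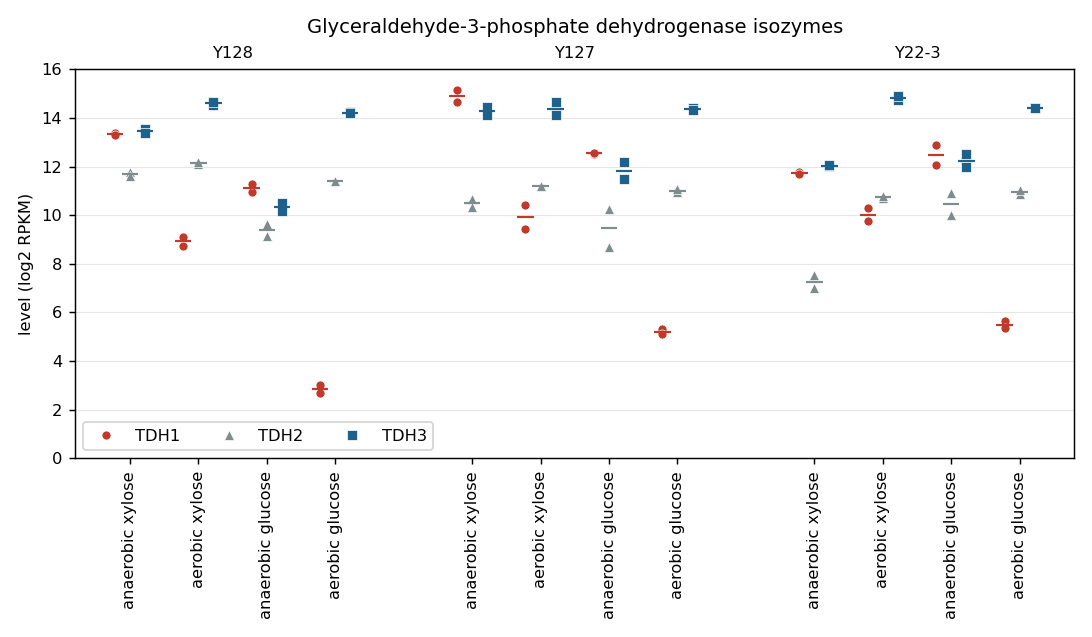
Level of TDH1, TDH2 and TDH3 (y axis, log2 RPKM) in the 12 duplicated groups (x axis, by strain and condition), with a point for each library and a short line at the mean of 2. TDH1 has a mean of 2.86 in Y128 in aerobic glucose and 14.89 in Y127 in anaerobic xylose, while TDH3 lies between 10.35 and 14.82.

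TDH1 was higher without oxygen than with it in every strain and sugar. On glucose, TDH1 rose 306-fold in Y128 (8.26 ± 0.31, log2 and SE, limma adjusted p = 1.21e-14), 162-fold in Y127 (7.34 ± 0.31, adjusted p = 8.07e-14) and 126-fold in Y22-3 (6.98 ± 0.31, adjusted p = 2.18e-13). On xylose it rose 21.4-fold in Y128 (4.42 ± 0.31, limma adjusted p = 2.44e-10), 31.2-fold in Y127 (4.96 ± 0.31, adjusted p = 1.18e-10) and 3.27-fold in Y22-3 (1.71 ± 0.31, adjusted p = 3.06e-05). TDH3 fell on glucose, by 3.87 ± 0.30 in Y128, 2.53 ± 0.30 in Y127 and 2.16 ± 0.30 in Y22-3 (limma adjusted p = 9.62e-10, 4.21e-07 and 4.38e-06 in that order). The TDH3 change in Y128 ranked 21 among the falls of all 5801 genes tested. On xylose TDH3 fell by 1.14 ± 0.30 in Y128 and 2.79 ± 0.30 in Y22-3 (limma adjusted p = 0.00434 and 3.59e-08), while the difference in Y127 was -0.10 ± 0.30 (adjusted p = 0.808), with overlapping libraries. TDH2 fell on glucose by 2.04 ± 0.36 in Y128 and 1.52 ± 0.36 in Y127 (limma adjusted p = 4.24e-05 and 0.000848), and on xylose by 3.47 ± 0.36 in Y22-3 (adjusted p = 1.63e-08).

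The balance within the family therefore turned. The log2 ratio of TDH1 to TDH3, which does not depend on the library total, was -11.35 ± 0.21 in Y128, -9.15 ± 0.07 in Y127 and -8.91 ± 0.21 in Y22-3 in aerobic glucose (SD, n = 2 each), so that TDH3 exceeded TDH1 by 480.0- to 2618-fold. In the 12 anaerobic libraries the ratio lay between -0.48 and 1.10, near equal levels, on either sugar. Over the strains the ratio was 10.38 higher without oxygen on glucose and 5.04 higher on xylose (exact stratified permutation test, two-sided, 12 libraries each, p = 0.00926, the smallest this design can give, adjusted p = 0.0148 over 16 ratio tests). It was also 4.83 higher on xylose than on glucose with oxygen (exact permutation, adjusted p = 0.0148), and without oxygen the difference between sugars was -0.51 (exact permutation, adjusted p = 0.136). As shares of the summed RPKM of the 3 TDH genes, TDH1 held 41.6% in Y128, 58.6% in Y127 and 43.9% in Y22-3 in anaerobic xylose, and 0.0335% in Y128, 0.160% in Y127 and 0.192% in Y22-3 in aerobic glucose.

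The ratio of TDH2 to TDH3 moved less and differed among strains in level. In anaerobic xylose it was -1.77 and -1.77 in Y128, -3.78 and -3.77 in Y127, and -4.48 and -5.05 in Y22-3. The Y128 libraries lay above those of both other strains there and also in aerobic xylose, at -2.43 and -2.46 in Y128, -3.44 and -2.93 in Y127, and -4.04 and -4.13 in Y22-3. They did so on glucose too. Anaerobic glucose had -0.89 and -1.06 in Y128, -1.94 and -2.76 in Y127, and -1.62 and -1.98 in Y22-3. Aerobic glucose had -2.81 and -2.79 in Y128, -3.44 and -3.28 in Y127, and -3.53 and -3.39 in Y22-3. Without oxygen the TDH2/TDH3 ratio was 1.50 higher than with oxygen on glucose (exact permutation, adjusted p = 0.0148). On xylose the difference was -0.20 (exact permutation, adjusted p = 0.497), made of 0.68 in Y128, -0.59 in Y127 and -0.68 in Y22-3. Between sugars the ratio was 1.73 lower on xylose without oxygen (-1.73, exact permutation, adjusted p = 0.0148).

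**Figure D3:**
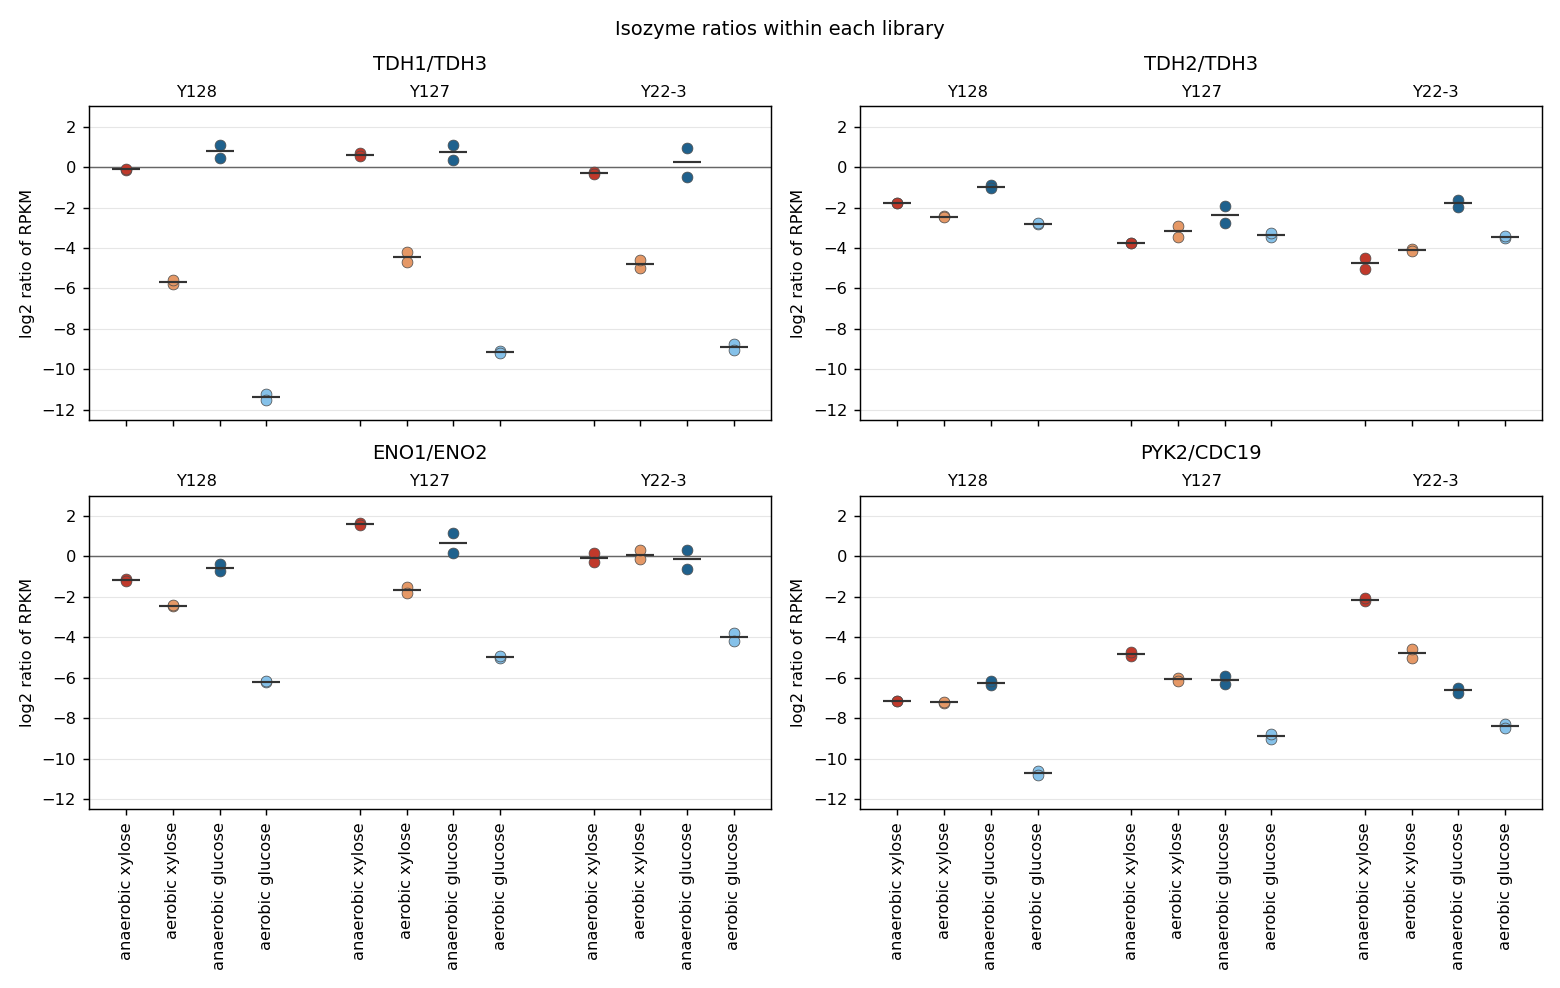
Log2 ratio of RPKM within each library (y axis) for TDH1/TDH3, TDH2/TDH3, ENO1/ENO2 and PYK2/CDC19 in the 12 duplicated groups (x axis), with a point for each of 2 libraries, a short line at their mean and a horizontal line at equal levels. In aerobic glucose TDH1/TDH3, ENO1/ENO2 and PYK2/CDC19 are at their lowest in each strain, with TDH1/TDH3 between -11.50 and -8.76, and PYK2/CDC19 is highest in Y22-3 in anaerobic xylose, at -2.21 and -2.07.

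PGK1 and GPM1 are each the only gene of their step among the 9. PGK1 had 12.97 and 12.83 log2 RPKM in Y128, 13.36 and 12.93 in Y127, and 8.70 and 8.13 in Y22-3 in anaerobic xylose. GPM1 had 12.56 and 12.52 in Y128, 12.22 and 11.95 in Y127, and 8.78 and 8.15 in Y22-3 in that condition. In both genes the Y22-3 anaerobic xylose group was the lowest of the 12, and Y128 in anaerobic glucose was next, at a mean of 10.29 ± 0.01 for PGK1 and 10.46 ± 0.18 for GPM1 (SD, n = 2). In the other 10 groups PGK1 had means between 11.50 and 13.14 and GPM1 between 10.96 and 12.59. Without oxygen on xylose, PGK1 fell 16.2-fold in Y22-3 (-4.01 ± 0.25, limma adjusted p = 8.82e-12), and the differences were -0.18 ± 0.25 in Y128 (adjusted p = 0.574) and 0.46 ± 0.25 in Y127 (adjusted p = 0.121). GPM1 fell by 3.13 ± 0.25 in Y22-3 (limma adjusted p = 4.30e-10) and differed by 0.13 ± 0.25 in Y128 and 0.29 ± 0.25 in Y127 (adjusted p = 0.696 and 0.341). On glucose PGK1 fell by 2.34 ± 0.25 in Y128 and 1.13 ± 0.25 in Y127 and was -0.46 ± 0.25 in Y22-3 (limma adjusted p = 7.58e-08, 0.000467 and 0.113). GPM1 fell there by 2.12 ± 0.25 in Y128, 1.48 ± 0.25 in Y127 and 0.72 ± 0.25 in Y22-3 (limma adjusted p = 3.90e-07, 3.54e-05 and 0.0177).

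ENO1 had 11.37 and 11.16 log2 RPKM in Y128 in anaerobic xylose, 10.08 and 10.25 in aerobic xylose, 9.38 and 9.42 in anaerobic glucose, and 6.85 and 6.91 in aerobic glucose. In Y127 it had 13.25 and 12.79 in anaerobic xylose, 10.44 and 9.88 in aerobic xylose, 10.90 and 10.58 in anaerobic glucose, and 7.98 and 8.10 in aerobic glucose. In Y22-3 it had 8.31 and 7.68 in anaerobic xylose, 10.53 and 11.15 in aerobic xylose, 10.66 and 10.98 in anaerobic glucose, and 8.68 and 8.62 in aerobic glucose. Y128 and Y127 were thus highest in anaerobic xylose, where Y22-3 was lowest. ENO2 had 12.49 and 12.36 in Y128, 11.60 and 11.22 in Y127, and 8.14 and 7.97 in Y22-3 in anaerobic xylose, and in aerobic xylose 12.54 and 12.66 in Y128, 11.97 and 11.70 in Y127, and 10.68 and 10.86 in Y22-3. In anaerobic glucose it had 10.11 and 9.81 in Y128, 10.72 and 9.45 in Y127, and 11.29 and 10.66 in Y22-3, and in aerobic glucose 13.07 and 13.08 in Y128, 13.00 and 13.03 in Y127, and 12.48 and 12.79 in Y22-3. ENO2 was highest in aerobic glucose in every strain, the condition in which ENO1 was lowest in Y128 and Y127.

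Without oxygen on glucose the enolase genes moved in opposite directions in every strain. ENO1 rose by 2.52 ± 0.25 in Y128, 2.70 ± 0.25 in Y127 and 2.17 ± 0.25 in Y22-3 (limma adjusted p = 3.18e-08, 1.41e-08 and 3.77e-07). ENO2 fell by 3.12 ± 0.31 in Y128, 2.93 ± 0.31 in Y127 and 1.66 ± 0.31 in Y22-3 (limma adjusted p = 3.48e-08, 9.37e-08 and 0.000113). On xylose ENO1 rose by 1.10 ± 0.25 in Y128 and 2.86 ± 0.25 in Y127 and fell by 2.85 ± 0.25 in Y22-3 (limma adjusted p = 0.00133, 1.55e-08 and 1.56e-09). ENO2 differed by -0.18 ± 0.31 in Y128 and -0.43 ± 0.31 in Y127 (limma adjusted p = 0.651 and 0.251) and fell by 2.71 ± 0.31 in Y22-3 (adjusted p = 8.41e-08). The log2 ratio of ENO1 to ENO2 was 5.03 higher without oxygen on glucose over the 3 strains (exact permutation, adjusted p = 0.0148). On xylose the difference was 1.48 (exact permutation, adjusted p = 0.0673), made of 1.28 in Y128, 3.29 in Y127 and -0.13 in Y22-3. The ratio was 3.70 higher on xylose than on glucose with oxygen (exact permutation, adjusted p = 0.0148), and differed by 0.15 without oxygen (adjusted p = 0.701). In shares of the summed RPKM of both genes, ENO1 held 30.9% in Y128, 75.3% in Y127 and 48.9% in Y22-3 in anaerobic xylose, and 1.34% in Y128, 3.09% in Y127 and 5.97% in Y22-3 in aerobic glucose.

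**Figure D4:**
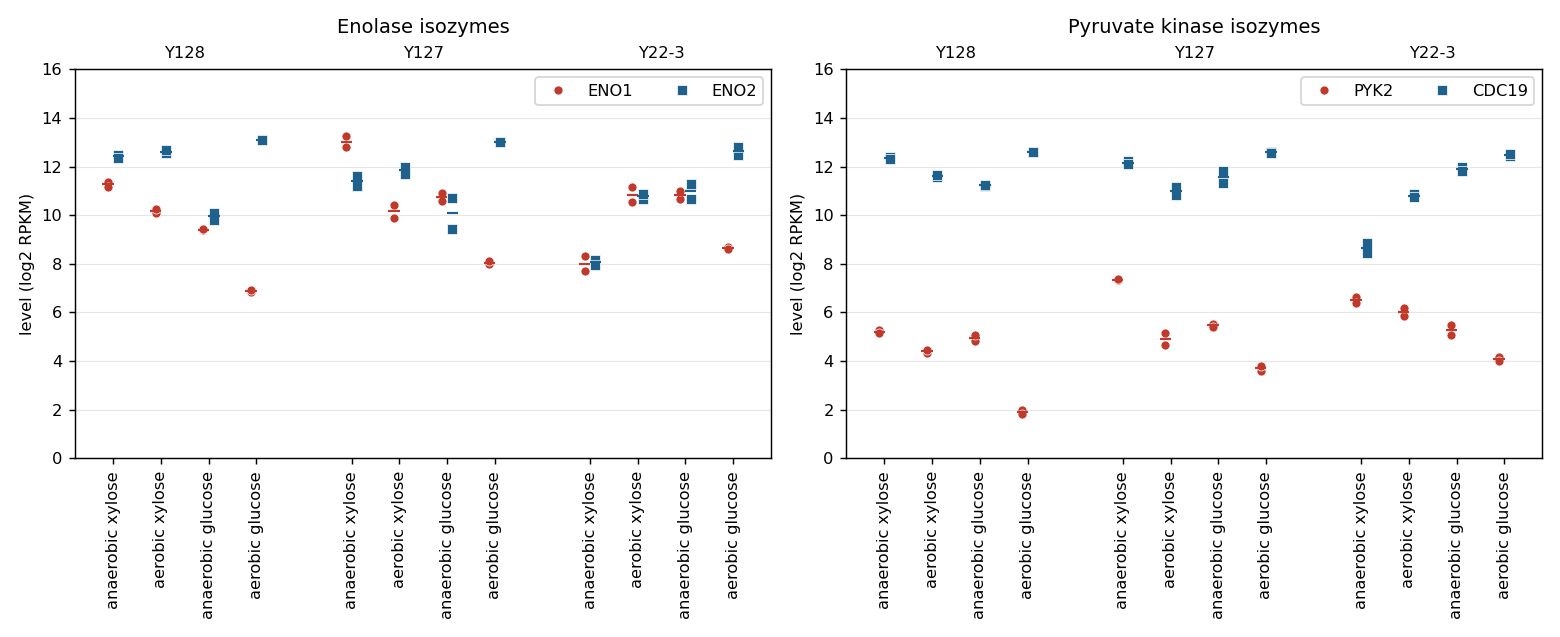
Level (y axis, log2 RPKM) of ENO1 and ENO2 (left) and of PYK2 and CDC19 (right) in the 12 duplicated groups (x axis, by strain and condition), with a point for each library and a short line at the mean of 2. ENO1 lies above ENO2 in both Y127 anaerobic xylose libraries, at 13.25 and 12.79 against 11.60 and 11.22, and PYK2 lies below CDC19 in all 24 libraries.

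CDC19, which encodes the main pyruvate kinase, had 12.39 and 12.29 log2 RPKM in Y128, 12.24 and 12.09 in Y127, and 8.84 and 8.46 in Y22-3 in anaerobic xylose, and in aerobic xylose 11.59 and 11.64 in Y128, 11.17 and 10.81 in Y127, and 10.86 and 10.75 in Y22-3. In anaerobic glucose it had 11.20 and 11.24 in Y128, 11.82 and 11.30 in Y127, and 11.98 and 11.80 in Y22-3, and in aerobic glucose 12.60 and 12.61 in Y128, 12.61 and 12.56 in Y127, and 12.44 and 12.51 in Y22-3. Its mean in Y22-3 in anaerobic xylose, 8.65 ± 0.27, lay apart from the next group in order, Y22-3 in aerobic xylose at 10.81 ± 0.07 (SD, n = 2 each), and the remaining 10 group means lay between 10.99 and 12.60. PYK2 had 5.27 and 5.14 in Y128, 7.32 and 7.38 in Y127, and 6.63 and 6.39 in Y22-3 in anaerobic xylose, and in aerobic xylose 4.34 and 4.47 in Y128, 5.15 and 4.67 in Y127, and 5.85 and 6.19 in Y22-3. In anaerobic glucose PYK2 had 4.82 and 5.09 in Y128, 5.52 and 5.41 in Y127, and 5.49 and 5.07 in Y22-3, and in aerobic glucose 1.97 and 1.82 in Y128, 3.60 and 3.80 in Y127, and 4.17 and 4.01 in Y22-3. In each aerobic condition the Y128 libraries held the lowest PYK2 of the 3 strains.

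PYK2 was higher without oxygen than with it in every strain and sugar. The rise on glucose was 3.06 ± 0.18 in Y128, 1.77 ± 0.18 in Y127 and 1.19 ± 0.18 in Y22-3 (limma adjusted p = 1.44e-11, 6.45e-08 and 1.31e-05). On xylose it was 0.80 ± 0.18 in Y128, 2.44 ± 0.18 in Y127 and 0.49 ± 0.18 in Y22-3 (limma adjusted p = 0.00136, 1.71e-09 and 0.0184). CDC19 fell on glucose by 1.38 ± 0.22 in Y128, 1.02 ± 0.22 in Y127 and 0.58 ± 0.22 in Y22-3 (limma adjusted p = 1.72e-05, 0.000440 and 0.0278). On xylose CDC19 rose by 0.73 ± 0.22 in Y128 and 1.18 ± 0.22 in Y127 and fell by 2.15 ± 0.22 in Y22-3 (limma adjusted p = 0.0116, 0.000163 and 1.77e-08). CDC19 stayed above PYK2 in all 24 libraries, and by group mean it did so from 4.42-fold in Y22-3 in anaerobic xylose to 1676-fold in Y128 in aerobic glucose. The log2 ratio of PYK2 to CDC19 was 3.00 higher without oxygen on glucose, 1.33 higher without oxygen on xylose and 3.30 higher on xylose than on glucose with oxygen (exact permutation, adjusted p = 0.0148 each). Without oxygen the difference between sugars was 1.62 (exact permutation, adjusted p = 0.137), made of -0.87 in Y128, 1.28 in Y127 and 4.47 in Y22-3. The rise of this ratio on xylose was 0.07 in Y128, 1.27 in Y127 and 2.64 in Y22-3.

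Counted over the 9 genes, loss of oxygen on glucose raised TDH1, ENO1 and PYK2 in all 3 strains. It lowered the other 6 in Y128 and in Y127, where 68.4% of all 5801 genes tested were called in Y128 (39.6% higher, 28.8% lower) and 68.2% in Y127 (35.3% higher, 32.9% lower). In Y22-3, 4 fell (TDH3, GPM1, ENO2, CDC19) and TDH2 and PGK1 did not pass, at -0.50 ± 0.36 and -0.46 ± 0.25, against 65.4% of all genes called (37.7% higher, 27.6% lower). The median over the 9 genes was -2.04 in Y128, -1.13 in Y127 and -0.50 in Y22-3, beside 0.18 in Y128, 0.02 in Y127 and 0.15 in Y22-3 over all genes. The GPM1 and CDC19 calls in Y22-3 were lost without aerobic replicate A (-0.75 and -0.62, adjusted p = 0.0574 and 0.0765), aerobic replicate B (-0.69 and -0.55, adjusted p = 0.0801 and 0.115) or anaerobic replicate B (-0.57 and -0.50, adjusted p = 0.132 and 0.143), and TDH2 was called without anaerobic replicate A (-0.96, adjusted p = 0.0475). With the 4 compared libraries fitted alone, the calls of PGK1 and CDC19 in Y127 (adjusted p = 0.106 and 0.146) and CDC19 in Y22-3 (adjusted p = 0.0521) were lost, CDC19 in Y22-3 was lost without the filter (adjusted p = 0.0639), and PGK1 was called in Y22-3 after centring (-0.73, adjusted p = 0.0110).

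On xylose the strains parted. In Y128, 4 genes rose (TDH1, ENO1, CDC19, PYK2) and TDH3 fell, against 47.3% of all genes called (21.0% higher, 26.3% lower). In Y127 the same 4 symbols rose and none of the others passed, against 57.1% called (33.6% higher, 23.5% lower). In Y22-3 only TDH1 and PYK2 rose and the other 7 fell by 2.15 to 4.01, against 84.4% called (20.7% higher, 63.7% lower). The medians over the 9 genes were 0.13 in Y128, 0.46 in Y127 and -2.79 in Y22-3, beside -0.11 in Y128, 0.13 in Y127 and -1.28 in Y22-3 over all genes. The CDC19 call in Y128 was lost without aerobic replicate A (0.70, adjusted p = 0.0681), aerobic replicate B (0.75, adjusted p = 0.0514) or anaerobic replicate A (0.68, adjusted p = 0.0756). The PYK2 call in Y22-3 was lost without aerobic replicate A (0.32, adjusted p = 0.182) or anaerobic replicate A (0.37, adjusted p = 0.130), and TDH2 was called in Y127 after centring (-0.92, adjusted p = 0.0383) and in Y128 with the compared libraries alone (adjusted p = 0.0118).

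**Figure D5:**
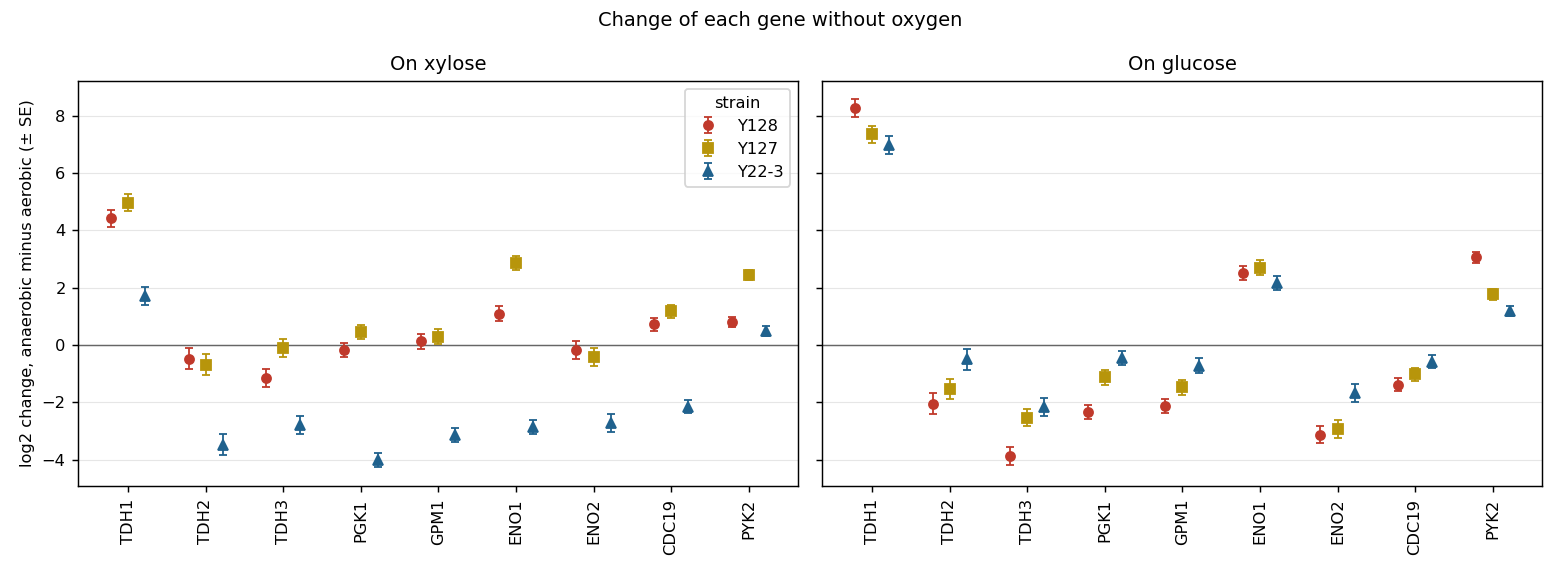
Log2 change without oxygen, anaerobic minus aerobic (y axis, points with SE of the limma fit), of the 9 genes (x axis) on xylose (left) and on glucose (right) in Y128, Y127 and Y22-3. On glucose the 3 strains lie on the same side of 0 for each gene, and on xylose ENO1 is at 1.10 in Y128, 2.86 in Y127 and -2.85 in Y22-3.

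The difference between strains in the change without oxygen on xylose was tested as an interaction. For Y127 minus Y22-3 it was above 0 and passed for all 9 genes, from 1.95 ± 0.26 for PYK2 to 5.70 ± 0.35 for ENO1, against 74.2% of all genes called (65.3% higher) and a median of 1.35 over all genes. For Y128 minus Y22-3 it passed for 8 genes, from 1.65 ± 0.43 for TDH3 to 3.94 ± 0.35 for ENO1, against 78.3% called (59.3% higher) and a median of 1.25, and was 0.31 ± 0.26 for PYK2 (limma adjusted p = 0.277). For Y128 minus Y127 it was below 0 for ENO1 (-1.76 ± 0.35, limma adjusted p = 0.000674) and PYK2 (-1.64 ± 0.26, adjusted p = 6.46e-05), against 37.5% called (24.3% lower), and the other 7 did not pass. Centring the libraries moved the Y127 interaction by -1.40 and the Y128 interaction against Y22-3 by -1.16. It ended the calls of ENO2 for Y127 (0.89, adjusted p = 0.0965) and TDH3 for Y128 (0.49, adjusted p = 0.308), and turned PYK2 for Y128 minus Y22-3 to -0.85 (adjusted p = 0.00181). For Y128 minus Y127, TDH3 (-1.05 ± 0.43, adjusted p = 0.0601) was called without Y127 aerobic xylose replicate A (-1.31, adjusted p = 0.0318), after 1 RPKM was added (adjusted p = 0.0474) and with the compared libraries alone (adjusted p = 0.0498).

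Between sugars with oxygen, xylose went with higher TDH1, ENO1 and PYK2 and lower CDC19 than glucose in every strain. TDH1 was higher by 6.06 ± 0.31 in Y128, 4.72 ± 0.31 in Y127 and 4.52 ± 0.31 in Y22-3 (limma adjusted p = 3.40e-12, 2.42e-10 and 1.67e-10). ENO1 was higher by 3.29 ± 0.25 in Y128, 2.12 ± 0.25 in Y127 and 2.19 ± 0.25 in Y22-3, and PYK2 by 2.51 ± 0.18 in Y128, 1.21 ± 0.18 in Y127 and 1.93 ± 0.18 in Y22-3. CDC19 was lower by 0.99 ± 0.22 in Y128 (-0.99), 1.59 ± 0.22 in Y127 (-1.59) and 1.67 ± 0.22 in Y22-3 (-1.67; limma adjusted p = 0.00130, 1.38e-05 and 3.26e-06). GPM1 and ENO2 were lower too in Y127 (-0.64 ± 0.25 and -1.17 ± 0.31) and in Y22-3 (-0.69 ± 0.25 and -1.87 ± 0.31), which makes 3 higher and 3 lower there, against 39.8% of all genes called in Y127 (14.0% higher, 25.8% lower) and 53.2% in Y22-3 (31.0% higher, 22.1% lower). In Y128 the count was 3 higher and 1 lower against 42.9% called (24.3% higher, 18.6% lower), and with the 4 compared libraries alone all 9 were called. The GPM1 call was lost in Y22-3 without either replicate of either group (-0.74 to -0.64, adjusted p = 0.0612 to 0.115) and in Y127 without xylose replicate B (-0.47, adjusted p = 0.266) or either glucose library (-0.65 and -0.64, adjusted p = 0.143 and 0.157), in both strains without the filter (adjusted p = 0.0590 in Y22-3 and 0.0923 in Y127) and with the compared libraries alone (adjusted p = 0.0841 in Y22-3 and 0.0804 in Y127), and in Y127 after centring (-0.47, adjusted p = 0.106). The ENO2 call in Y127 was lost without xylose replicate B (-1.04, adjusted p = 0.0574).

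Without oxygen, xylose went with higher levels than glucose for 8 of the 9 genes in Y128 and all 9 in Y127, and with lower levels for 7 in Y22-3. In Y128 the differences that passed ran from 1.12 ± 0.22 for CDC19 to 3.11 ± 0.30 for TDH3, with PYK2 at 0.25 ± 0.18 (limma adjusted p = 0.296), against 38.8% of all genes called (12.3% higher, 26.5% lower). In Y127 they ran from 0.60 ± 0.22 for CDC19 to 2.45 ± 0.30 for TDH3, against 50.2% called (21.8% higher, 28.4% lower). In Y22-3, PGK1 was lower by the most (-3.54 ± 0.25), followed by CDC19 (-3.24 ± 0.22) and TDH2 (-3.18 ± 0.36), PYK2 was higher (1.23 ± 0.18, limma adjusted p = 2.99e-06), and TDH3 did not pass (-0.21 ± 0.30, adjusted p = 0.508), against 86.6% called (21.9% higher, 64.7% lower). The medians over the 9 genes were 2.22 in Y128, 1.64 in Y127 and -2.92 in Y22-3, beside -0.18 in Y128, -0.10 in Y127 and -1.39 in Y22-3 over all genes. After centring, TDH1 and TDH3 in Y22-3 lay above 0 instead, at 0.49 (adjusted p = 0.144) and 1.02 (adjusted p = 0.00490). The TDH1 call in Y22-3 (-0.74, adjusted p = 0.0291) was lost without xylose replicate A (-0.77, adjusted p = 0.0746), xylose replicate B (-0.72, adjusted p = 0.0957) or glucose replicate B (-0.31, adjusted p = 0.393) and with the compared libraries alone (adjusted p = 0.0606), and PYK2 in Y128 was called after centring (0.45, adjusted p = 0.0224). In Y127 the calls of TDH2, CDC19 and ENO2 were lost without 1 glucose library, whose column has no replicate letter of its own (0.25, 0.35 and 0.69, adjusted p = 0.549, 0.254 and 0.0515), those of TDH2 and CDC19 without xylose replicate A (0.86 and 0.53, adjusted p = 0.131 and 0.132) and that of CDC19 without xylose replicate B (0.68, adjusted p = 0.0539), and with the compared libraries alone TDH2, GPM1 and CDC19 did not pass (adjusted p = 0.111, 0.0542 and 0.281), nor did CDC19 without the filter (adjusted p = 0.0688).

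In anaerobic xylose both evolved strains held far more transcript of most of these genes than Y22-3. Y127 exceeded Y22-3 in all 9, by 5.02 ± 0.25 for ENO1 and 4.72 ± 0.25 for PGK1, which ranked 24 and 25 among the rises of 5801 genes, against 81.6% of all genes called (61.2% higher). Y128 exceeded Y22-3 in 8, from 1.43 ± 0.30 for TDH3 to 4.48 ± 0.25 for PGK1, and was lower in PYK2 (-1.31 ± 0.18, limma adjusted p = 1.28e-06), against 85.9% called (58.2% higher, 27.7% lower). The medians over the 9 genes were 3.69 for Y128 and 3.35 for Y127, beside 1.04 for Y128 and 1.13 for Y127 over all genes. Centring shifted these differences by -0.87 for Y128 and -0.97 for Y127, ended the TDH3 call for Y128 (0.56, adjusted p = 0.0937) and left PYK2 for Y127 at -0.13 (adjusted p = 0.437), from 0.84 ± 0.18 as deposited.

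Y128 set against Y127 in anaerobic xylose had lower TDH1 (-1.55 ± 0.31), TDH3 (-0.83 ± 0.30), ENO1 (-1.76 ± 0.25) and PYK2 (-2.15 ± 0.18) and higher TDH2 (1.17 ± 0.36) and ENO2 (1.01 ± 0.31), with limma adjusted p from 1.01e-08 for PYK2 to 0.0255 for TDH3. These are 2 higher and 4 lower, against 56.2% of all genes called (25.9% higher, 30.3% lower). PGK1, GPM1 and CDC19, at -0.24 ± 0.25, 0.46 ± 0.25 and 0.18 ± 0.22, did not pass. The TDH2 and ENO2 calls were lost without Y127 replicate B (1.01 and 0.82, adjusted p = 0.0775 and 0.0946) or Y128 replicate A (1.09 and 0.95, adjusted p = 0.0548 and 0.0577). The TDH3 call was lost without Y127 replicate A (-0.65, adjusted p = 0.148) or either Y128 replicate (-0.91 and -0.75, adjusted p = 0.0641 and 0.128), without the filter (adjusted p = 0.109) and with the compared libraries alone (adjusted p = 0.0767), and GPM1 was called after centring (0.56, adjusted p = 0.0423).

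In the other 3 conditions Y128 was set against Y22-3 in the same way. In aerobic glucose TDH1 (-2.64 ± 0.31), ENO1 (-1.77 ± 0.25) and PYK2 (-2.20 ± 0.18) were lower in Y128 (limma adjusted p = 3.10e-06, 3.26e-05 and 4.04e-08), and the other 6 lay between -0.19 and 0.47 and did not pass, against 20.4% of all genes called (3.33% higher, 17.1% lower). In anaerobic glucose 8 genes were lower, from -0.67 ± 0.22 for CDC19 to -1.90 ± 0.30 for TDH3, against 20.5% called (14.3% lower), and PYK2 was -0.33 ± 0.18 (limma adjusted p = 0.230). In aerobic xylose TDH2 (1.42 ± 0.36), PGK1 (0.64 ± 0.25), GPM1 (0.81 ± 0.25), ENO2 (1.84 ± 0.31) and CDC19 (0.81 ± 0.22) were higher and TDH1 (-1.10 ± 0.31), ENO1 (-0.67 ± 0.25) and PYK2 (-1.62 ± 0.18) lower, against 47.5% called (16.3% higher, 31.2% lower), with TDH3 at -0.22 ± 0.30. With the compared libraries alone, 8 genes were called in aerobic glucose and 3 in anaerobic glucose (TDH3, PGK1 and ENO1), where centring left 5 (without CDC19, TDH2 and ENO2) and TDH2 and CDC19 were not called without the filter (adjusted p = 0.0504 and 0.0881). In anaerobic glucose the CDC19 call was lost without any 1 of the 4 libraries (-0.75 to -0.58, adjusted p = 0.0881 to 0.176), the TDH2 and ENO2 calls without Y128 replicate A (-1.33 and -1.16, adjusted p = 0.0537 and 0.0572), Y128 replicate B (-0.82 and -0.87, adjusted p = 0.274 and 0.180) or Y22-3 replicate A (-0.62 and -0.70, adjusted p = 0.337 and 0.225), GPM1 without Y128 replicate B (-0.98, adjusted p = 0.0549) and TDH1 without Y22-3 replicate B (-0.93, adjusted p = 0.0809). In aerobic xylose the calls of PGK1, GPM1, ENO1 and TDH1 were lost without Y128 replicate A (0.69, 0.83, -0.59 and -0.91, adjusted p = 0.0987, 0.0554, 0.158 and 0.0692), those of PGK1, GPM1 and ENO1 without Y128 replicate B (0.59, 0.80 and -0.76, adjusted p = 0.158, 0.0628 and 0.0713), those of PGK1 and GPM1 without Y22-3 replicate A (0.48 and 0.76, adjusted p = 0.196 and 0.0516) and those of ENO1 and TDH1 without Y22-3 replicate B (-0.37 and -0.82, adjusted p = 0.329 and 0.0874), and PGK1 and ENO1 were not called with the compared libraries alone (adjusted p = 0.147 and 0.0886), PGK1 without the filter (adjusted p = 0.0917) or ENO1 after centring (-0.38, adjusted p = 0.202).

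The reach of the 12 group means set TDH1 apart in size. The highest mean exceeded the lowest 4185-fold for TDH1, 70.4-fold for ENO1 and 43.9-fold for PYK2, against 15.5-fold for CDC19, 17.4-fold for GPM1, 22.2-fold for TDH3, 26.4-fold for PGK1, 29.7-fold for TDH2 and 32.5-fold for ENO2. In TDH2, PGK1, GPM1, ENO2 and CDC19 the lowest group was Y22-3 in anaerobic xylose, in TDH1, ENO1 and PYK2 it was Y128 in aerobic glucose, and in TDH3 it was Y128 in anaerobic glucose. Y127 in anaerobic xylose was highest for TDH1, PGK1, ENO1 and PYK2, Y128 in aerobic glucose for GPM1, ENO2 and CDC19, Y128 in aerobic xylose for TDH2 and Y22-3 in aerobic xylose for TDH3. Of the 11 neighbour pairs in each order, the libraries overlapped in 2 for TDH1, 3 each for GPM1, CDC19 and PYK2, 4 each for TDH2 and ENO1, 5 each for PGK1 and ENO2, and 6 for TDH3. For TDH3, the libraries of Y127 in xylose, with and without oxygen, overlapped with those of neighbouring aerobic glucose groups. In aerobic glucose the TDH3 means of Y128, Y127 and Y22-3 were close, at 14.21 ± 0.02, 14.37 ± 0.05 and 14.40 ± 0.00071 in that order (SD, n = 2 each). The highest Y127 library there, at 14.401, lay just below the lowest of Y22-3, at 14.402. Y128 against Y22-3 did not pass for TDH3 there (-0.19 ± 0.30, SE, limma adjusted p = 0.732).

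The single libraries in galactose, a hexose, and in sorbitol, a sugar alcohol, carry no test. TDH1 had 12.54 log2 RPKM in anaerobic and 8.45 in aerobic galactose in Y128, and 13.32 and 10.10 in that order in Y22-3. In sorbitol TDH1 had 14.38 without and 9.05 with oxygen in Y128, and 13.44 without and 10.49 with oxygen in Y22-3. Each anaerobic library was higher, and in galactose and sorbitol TDH1/TDH3 lay between -0.80 and -0.39 without oxygen and between -5.68 and -2.93 with oxygen. TDH3 had 12.93 without and 14.13 with oxygen in Y128 in galactose, and 14.11 and 14.62 in that order in Y22-3. In sorbitol TDH3 was instead higher without oxygen, at 14.90 against 12.68 in Y128 and 14.10 against 13.42 in Y22-3. ENO1 exceeded ENO2 in both Y22-3 sorbitol libraries and in Y22-3 in anaerobic galactose, with log2 ratios of 1.65 in anaerobic and 0.81 in aerobic sorbitol and 1.62 in anaerobic galactose, while in Y128 the ratio was -0.12 in anaerobic sorbitol, 0.51 in aerobic sorbitol, -1.02 in anaerobic galactose and -2.44 in aerobic galactose. PYK2/CDC19 in Y128 was lower without oxygen in sorbitol, at -6.95 against -4.56, and was -6.11 without and -6.04 with oxygen in galactose. In Y22-3 this ratio was higher without oxygen, at -5.02 against -6.42 in sorbitol and -5.04 against -5.56 in galactose. PGK1 and GPM1 were at 12.79 and 12.66 in the anaerobic sorbitol library of Y128, against 9.95 and 9.66 in its aerobic one. The 9 genes made up 20.7% of the summed RPKM in that anaerobic library of Y128, the highest share of the 32 libraries, and 5.51% in the anaerobic sorbitol library of Y22-3, although neither culture grew. The median over all genes was low in both, at 2.50 log2 RPKM in Y128 and 1.77 in Y22-3. In aerobic sorbitol it was 4.07 in Y128 and 3.90 in Y22-3. There the 9 genes held 2.54% of the summed RPKM in Y128 and 3.09% in Y22-3, less than in any aerobic library on xylose or glucose. HSP12 held 15.9% of the summed RPKM in the anaerobic sorbitol library of Y22-3. In Y22-3 in anaerobic galactose the median was 3.23. The single libraries were not centred.

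Genes of upper glycolysis, a list of 8 (HXK1, HXK2, GLK1, PGI1, PFK1, PFK2, FBA1, TPI1) that takes glucose to the triose phosphates, were set beside these. Without oxygen on glucose 2 rose and 6 fell in Y128 and in Y127, and 2 rose and 4 fell in Y22-3, with medians of -1.14 in Y128, -0.80 in Y127 and -0.46 in Y22-3. The 2 that rose on glucose in every strain were HXK1 and GLK1, which encode hexose- and glucose-phosphorylating kinases, by 7.87 for HXK1 and 3.73 for GLK1 in Y128. On xylose 2 rose and 1 fell in Y128, 3 rose and 1 fell in Y127, and 1 rose and 5 fell in Y22-3, where PGI1, the phosphoglucose isomerase gene, fell by 3.08 and TPI1, the triose phosphate isomerase gene, by 2.74. For these counts and those of the lists that follow, the shares over all 5801 genes were 39.6% higher and 28.8% lower on glucose in Y128, 35.3% higher and 32.9% lower in Y127, and 37.7% higher and 27.6% lower in Y22-3. On xylose they were 21.0% higher and 26.3% lower in Y128, 33.6% higher and 23.5% lower in Y127, and 20.7% higher and 63.7% lower in Y22-3. The count of upper glycolysis genes that fell on xylose in Y22-3 was near that share.

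Of 5 listed homologs of the lower steps, 4 were in the table and tested. On glucose 3 rose in Y128, 3 in Y127 and 4 in Y22-3 and none fell, and on xylose 4 rose in Y128, 3 rose in Y127 and 2 rose and 2 fell in Y22-3. GPM2, a homolog of the mutase gene GPM1, rose without oxygen on glucose by 5.48 in Y128, 4.39 in Y127 and 4.72 in Y22-3, and on xylose by 3.77 in Y128 and 2.81 in Y127, but fell by 0.83 in Y22-3 (limma adjusted p = 0.00616). ERR1 and ERR3, similar genes related to enolase whose shared reads may be split, were higher in Y22-3 without oxygen on xylose, at 6.52 and 9.18 log2 RPKM in anaerobic xylose, with ERR3 at 0.76 in aerobic xylose. In that Y22-3 condition ERR3 lay above ENO1 (7.99 ± 0.44) and ENO2 (8.06 ± 0.12; SD, n = 2), whereas in anaerobic xylose it was at 1.61 in Y128 and 4.57 in Y127. The 4 listed regulators were counted too. TYE7, an activator of glycolytic genes, rose without oxygen on xylose in Y128 (1.04) and Y127 (0.59) and fell in Y22-3 by 2.93, and GCR1, another activator, rose there in Y128 (0.66) and Y127 (1.10) and fell in Y22-3 by 1.54. All 4 regulators fell in Y22-3 on xylose, where 63.7% of all genes were lower and the median over all genes was -1.28. On xylose 2 rose and 1 fell in Y128 and in Y127, and on glucose 1 rose and 2 fell in Y128 and 1 rose and 1 fell in Y127 and in Y22-3, with TYE7 the one that rose.

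Of the 5 genes of gluconeogenesis and pyruvate carboxylation (FBP1, PCK1, PYC1, PYC2, MDH2), 3 rose and 1 fell without oxygen on glucose in Y128, and 4 rose and 1 fell in Y127 and in Y22-3. On xylose 3 fell in Y128 and none passed upward, 4 rose and 1 fell in Y127, and 1 rose and 4 fell in Y22-3, beside 26.3% of all genes lower in Y128, 33.6% higher in Y127 and 63.7% lower in Y22-3. PCK1, the phosphoenolpyruvate carboxykinase gene that acts against pyruvate kinase, rose on glucose by 6.07 in Y128, 7.11 in Y127 and 5.86 in Y22-3. On xylose it differed by -0.34 in Y128 (limma adjusted p = 0.191), rose by 4.06 in Y127 and fell by 3.91 in Y22-3. Of 4 genes of fermentation from pyruvate (PDC1, PDC5, PDC6, ADH1), on xylose 2 rose in Y128, 2 rose and 1 fell in Y127 and 3 fell in Y22-3, and on glucose 2 rose and 2 fell in Y128, 1 rose and 2 fell in Y127 and 1 rose and 1 fell in Y22-3. Nothing particular to these lists is read from such small counts. ADH1, the main alcohol dehydrogenase gene, had 13.44 log2 RPKM in Y128, 13.74 in Y127 and 10.04 in Y22-3 in anaerobic xylose.

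Over the 12 group means, the genes whose levels were most like each of the 9 were found by Pearson correlation, as a description, since the groups share strains, media and depth. GPM2 (0.97) and GAC1 (0.95) were most like TDH1, SOL3 and FUR4 (0.95 each) most like TDH2, and the xylose isomerase transgene CpXylA (0.97) and SNF4 (0.95) most like TDH3. PGI1 (0.97) and PFK2 (0.96) of upper glycolysis were most like PGK1, and PFK2 (0.98) and HIP1 (0.97) most like GPM1. For ENO2 they were FCY2 and PPH3 (0.96 each), for CDC19 ADH4 (0.97) and YAL037C-B (0.96), for PYK2 STP3 (0.97) and PRX1 (0.96), and for ENO1 YIL014C-A (0.91) and a gene known only by its identifier in the Y22-3 annotation (0.94). No other of the 9 genes could enter this ranking.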

How the data were processed

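RNA was sequenced from 3 yeast strains in 32 cultures. The authors trimmed the reads with Trimmomatic, mapped them to the Y22-3 genome with Bowtie2 2.2.2, counted them per gene with HTSeq 0.6.0 and deposited 1 table of log2 RPKM for 6328 genes. The authors used edgeR for their own comparisons, and no counts were used here. Library totals were estimated from genes with 0 reads, taking 1 read as added.

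One mean per group was fitted to the 24 duplicated libraries (12 groups of 2, 12 residual degrees of freedom, no replicate block) with limma 3.58.1 in R 4.3.3, with a variance trend, over 5801 genes whose mean RPKM reached 1. Benjamini-Hochberg adjustment ran over all genes tested, and the threshold was 0.05. There were 21 comparisons, many of which share libraries, so their values stand side by side and were not compared. Limma p-values rest on the spread between the 2 cultures of a group, pooled over the 12 groups and drawn towards the variance trend. They do not measure the spread of the compared groups alone. Isozyme ratios were tested by exact permutation within strains, adjusted over 16 tests. Both tests were tried on simulated data, in which the limma fit missed most of the smaller simulated interactions. The 4 Y127 glucose columns share names within a condition, so their replicate is unknown.

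The named genes are all 9 genes, up to 4 of each pathway list and the 2 most correlated genes of each. Members and lists were chosen with earlier results of these data known. Alternatives were centring each library on its median, adding 1 RPKM, no filter, a replicate block, a fit of only the libraries compared, and dropping each library or a strain. Promoter and protein sequences were not analysed here. Python 3.11.15 with pandas 2.3.3 and matplotlib 3.10.9 was used.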

Additional observations from a re-analysis of the deposited data

Results flagged for a closer look

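The change without oxygen on xylose differed between strains, by the interaction term of the limma fit, in 19 tests. Of all genes tested, 74.2% passed for Y127 minus Y22-3 (median 1.35), 78.3% for Y128 minus Y22-3 (median 1.25) and 37.5% for Y128 minus Y127, where only 2 of the 9 genes passed. Against Y22-3, the change in Y127 was higher by 3.25 for TDH1, 2.79 for TDH2, 2.70 for TDH3, 4.47 for PGK1, 3.42 for GPM1, 5.70 for ENO1, 2.28 for ENO2, 3.33 for CDC19 and 1.95 for PYK2 (log2). Against Y22-3, the change in Y128 was higher by 2.71 for TDH1, 3.00 for TDH2, 1.65 for TDH3, 3.84 for PGK1, 3.26 for GPM1, 3.94 for ENO1, 2.53 for ENO2 and 2.88 for CDC19. Centring each library ended the call of ENO2 for Y127 (0.89, adjusted p = 0.0965) and that of TDH3 for Y128 (0.49, adjusted p = 0.308). Against Y127, the change in Y128 was lower for ENO1 (-1.76) and PYK2 (-1.64). In Y22-3 and Y127 the anaerobic xylose cultures did not grow, and in Y22-3 the median over all genes fell with them. Their part in these differences was not tested.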

How the results depend on the processing

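Of the single-gene results under the alternatives, 1665 kept their side of the threshold, 91 lost a call, 22 gained one and 4 changed sign with a call in either fit. Changes of sign in results called in neither fit are counted among the 1665. The 4, all after centring, were TDH1 (0.49 for -0.74) and TDH3 (1.02 for -0.21) for xylose against glucose in anaerobic Y22-3, PYK2 for Y127 against Y22-3 in anaerobic xylose (-0.13 for 0.84) and PYK2 in the Y128 minus Y22-3 interaction (-0.85 for 0.31). Centring moved every gene of a comparison by the same amount. This was 1.24 for xylose against glucose in anaerobic Y22-3, -0.97 for Y127 against Y22-3 in anaerobic xylose and -1.16 for the Y128 minus Y22-3 interaction. What lay behind these shifts of the medians was not tested.

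Counts of genes called moved for Y128 against Y22-3 in anaerobic glucose (8 as reported, 5 centred, 3 with the compared libraries alone) and in aerobic glucose (3, and 8 alone), and for xylose against glucose in aerobic Y128 (4, and 9 alone). Leaving out 1 library gave 4 to 6 for Y128 against Y22-3 in anaerobic glucose and in aerobic xylose (8 each as reported), 3 to 5 for Y128 against Y127 (6), 4 to 6 for xylose against glucose in aerobic Y127 (6), 6 to 9 in anaerobic Y127 (9), and 2 to 3 for the Y128 minus Y127 interaction (2). It gave ratio differences of 1.40 to 1.55 for ENO1/ENO2 without oxygen on xylose and -0.74 to -0.27 for TDH1/TDH3 on xylose without oxygen, past the threshold at one end.

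Without Y22-3, the changes without oxygen on glucose were 11.00 for TDH1/TDH3, 5.63 for ENO1/ENO2 and 3.62 for PYK2/CDC19, and on xylose 5.31 for TDH1/TDH3, 0.045 for TDH2/TDH3, 2.28 for ENO1/ENO2 and 0.67 for PYK2/CDC19. The xylose differences were then 5.19 for TDH1/TDH3 and 0.26 for TDH2/TDH3 with oxygen, and -1.11 for TDH2/TDH3 and 0.20 for PYK2/CDC19 without. Without Y127, they were 0.57 for ENO1/ENO2 (oxygen loss, xylose), 3.91 for ENO1/ENO2 and 3.55 for PYK2/CDC19 (xylose, oxygen) and 1.80 for PYK2/CDC19 (xylose, no oxygen).

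Replicate letters were not taken to pair the libraries, since only 7 of 45 pairs of groups had deviations that correlated above 0.1 (-0.11 to 0.33, median 0.01). Of these, 6 were all the pairs among 4 groups (Y127 anaerobic xylose, Y128 and Y22-3 anaerobic glucose, Y22-3 aerobic xylose), at 0.11 to 0.33, so that letters went together there. With the letter as a replicate block, 3 single-gene calls were gained, none lost, and 159 stayed: TDH2 on xylose in Y127 (-0.68, adjusted p = 0.0162), TDH2 for xylose in aerobic Y128 (0.74, adjusted p = 0.0135) and TDH3 in the Y128 minus Y127 interaction (-1.05, adjusted p = 0.0152). No block fit was possible for comparisons with Y127 glucose.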
